A study of Homo sapiens with 2 samples.

Results

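Integrins are cell surface receptors made of 1 alpha and 1 beta chain. Laminins are secreted trimers of an alpha, a beta and a gamma chain, and nidogens and perlecan are the linkers that join the laminin network to the rest of the basement membrane. The 33 genes described here encode 12 integrin alpha chains, 8 integrin beta chains, 10 laminin chains, the nidogens NID1 and NID2, and the perlecan core protein HSPG2. They were taken by symbol from a list of names, out of 58735 genes in the tables. Integrins of the laminin-binding kind are ITGA3, ITGA6 or ITGA7 with ITGB1, and ITGA6 with ITGB4. Those of ITGA3 and ITGA6 hold epithelial and mammary cells to laminin, and the pair of ITGA6 with ITGB4 sits in hemidesmosomes. ITGA6 is also in use as a surface marker in the isolation of mammary stem and progenitor cells.

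The RNA came from BT549, an established line of mesenchymal character that was derived from a triple-negative breast tumour. The shSIK2 culture carried a short hairpin RNA against the salt-inducible kinase SIK2, and the scrambled culture carried a control hairpin. Cells of both cultures were exposed to Wnt3a, a secreted Wnt ligand, for 2 h, so neither shows the cells without Wnt3a. Each group is 1 library, and the sources used here do not say whether the hairpin cells were a pool or 1 clone. No difference below therefore has a replicate check, no p-value is given, and intervals cover counting error only.

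Values are FPKM, a read number per kilobase of exon, with the length taken over all annotated exons of a gene. This adjusts levels between genes for that length, but not for GC content or for which exons the cells use. Comparisons of level between genes below carry that limit. The libraries held 16347399 reads (shSIK2) and 18019225 reads (scrambled) assigned to genes, recovered from the FPKM values. A gene had to reach 1 FPKM in 1 of the libraries to count as measured. It was called higher or lower where FPKM, with 0.1 added as a pseudocount, differed by 2-fold or more, and log2 ratios are shSIK2 over scrambled on that scale. The hairpin's target SIK2 stood at 3.56 FPKM in the shSIK2 library and 7.80 FPKM in the scrambled library, 2.19-fold lower (95% counting interval 1.99 to 2.42), a log2 ratio of -0.97 at equal library totals. Of the mesenchymal markers, VIM (283 and 260 FPKM, shSIK2 then scrambled), ZEB1 and FN1 were present, while CDH2 stood at 0.400 FPKM in the shSIK2 library and 2.44 FPKM in the scrambled library. The 3 epithelial markers had 2 reads in all in the shSIK2 library and 36 in the scrambled library, with EPCAM at 0. None of 6 leukocyte, 4 endothelial and 2 adipocyte markers was measured. Their summed reads were 20, 1 and 6 in the shSIK2 library, against 22, 3 and 3 in the scrambled library, with CD3E, LYZ, CD68, PECAM1, CDH5 and ADIPOQ at 0 in both.

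Of the 33 genes, 20 were measured and 13 stayed below 1 FPKM. In the shSIK2 library ITGA6, HSPG2 and ITGA2 were higher by 2-fold or more, which is 15.0% of those measured against a background of 11.0% of all 12866 measured genes. LAMA3 and ITGA10 were at least 2-fold lower, or 10.0% against a background of 8.28%. In bulk RNA, fewer cells that express a gene and less RNA per cell cannot be told apart for any of these values. Both shares lie near the background, so these counts are not a result about the genes as a set. The median log2 ratio of the 20 was -0.04 and that of all measured genes -0.11, with the list at 0.07 relative to all genes. With both libraries scaled to the same total, ITGA6, HSPG2 and ITGA2 stayed at least 2-fold higher (background 13.4%), and 0 were at least 2-fold lower (background 6.04%): LAMA3 then had a log2 ratio of -0.99 and ITGA10 of -0.88. Those values include the pseudocount. By reads alone at equal totals, LAMA3 in shSIK2 was at 0.483 of its scrambled value, just past 2-fold, and ITGA10 at 0.539. By class, 7 of the 10 measured integrin chains had positive log2 ratios under both scalings, while 6 of the 7 measured laminin chains had negative ones as deposited and 5 of 7 at equal totals, where LAMB2 moved to 0.02. Over all 12866 measured genes, 5609 log2 ratios were positive and 7187 negative as deposited. At equal totals the median of all measured genes was 0.03, and their signs were not counted. With 10 and 7 genes and 1 library per group, the class counts are a description only.

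**Figure D1:**
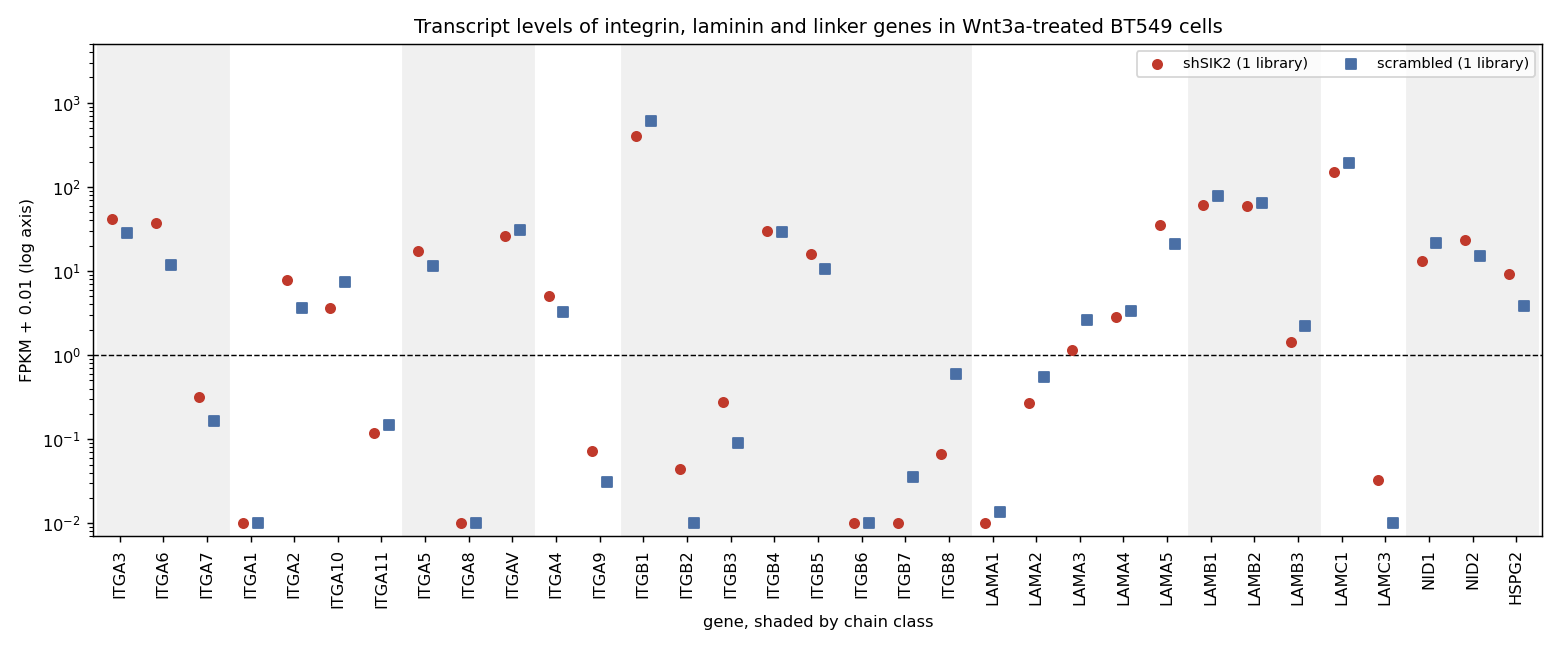
FPKM plus 0.01 (log axis) of the 33 genes in the shSIK2 library (red circles) and the scrambled library (blue squares), 1 library per group; the dashed line marks 1 FPKM and shading separates chain classes. ITGB1 is the highest gene in both libraries, and 13 genes lie below the line in both.

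The promoters of the 3 higher genes are printed to show the regulatory sequence in front of the transcripts that the result turns on. Each is the 250 bases before the first start listed by RefSeq (GRCh38.p14), 5′ to 3′ along the gene. Capitals mark every match, on either strand, to 6 motifs: the GC box GGGCGG, the AP-1 site TGACTCA, the CREB site TGACGTCA, the TCF/LEF site CTTTGA, the E-box CAGGTG of ZEB and SNAI factors, and the TATA box TATAAA. The windows are chr2:172427086-172427335 (plus strand) for ITGA6, chr5:52989102-52989351 (plus strand) for ITGA2 and chr1:21937311-21937560 (minus strand) for HSPG2.
ITGA6: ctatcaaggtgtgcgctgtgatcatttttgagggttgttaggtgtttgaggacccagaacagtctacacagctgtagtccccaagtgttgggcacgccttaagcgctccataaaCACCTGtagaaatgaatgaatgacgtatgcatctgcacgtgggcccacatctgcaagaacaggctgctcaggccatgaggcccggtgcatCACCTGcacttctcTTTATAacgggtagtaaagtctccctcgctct
ITGA2: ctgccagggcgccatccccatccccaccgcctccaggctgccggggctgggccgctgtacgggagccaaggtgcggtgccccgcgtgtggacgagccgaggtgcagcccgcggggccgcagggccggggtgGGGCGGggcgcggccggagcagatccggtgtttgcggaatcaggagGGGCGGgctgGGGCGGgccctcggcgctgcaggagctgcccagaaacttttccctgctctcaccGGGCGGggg
HSPG2: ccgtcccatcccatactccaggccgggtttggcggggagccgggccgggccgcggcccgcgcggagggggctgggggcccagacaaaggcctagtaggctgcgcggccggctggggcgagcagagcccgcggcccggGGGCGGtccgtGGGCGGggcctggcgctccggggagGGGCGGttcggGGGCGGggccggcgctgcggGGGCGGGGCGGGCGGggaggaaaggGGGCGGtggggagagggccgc

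HSPG2 held 8 GC boxes, some of them overlapping, and was 82.8% G or C, and ITGA2 held 4 GC boxes at 76.4%. The ITGA2 GC box at 9 bases before the start lies within the 26 bases of that window that are annotated exon. ITGA6 was 50.8% G or C with no GC box, and held 2 E-boxes, at 136 and 46 bases before the start, and 1 match to the TATA box at 32 bases. These matches read CACCTG and TTTATA along the gene, so the motifs as written above lie on the opposite strand. The TATA match thus does not run in the direction of the gene. A GC box was in 42.6% of all 35116 windows of this length in the table, the E-box in 17.5% and the TATA box in 10.7%. No match to the CREB or the TCF/LEF motif was found in the 3 windows. Over the 25 of 33 genes that have a window, 15 held a GC box, 6 the E-box, 2 the TCF/LEF site (ITGA1 and LAMA2) and 0 the CREB site, against 11.2% of all windows for the TCF/LEF site and 1.65% for the CREB site. The window of LAMA3 held 2 AP-1 sites, at 125 and 69 bases before the listed start, the second sharing letters with an E-box match, and 4.20% of all windows held an AP-1 site. It lies before an internal start and mostly within annotated exons. Over 50% of the ITGA10 window, which held none of the motifs, also lies within exons, so neither is printed. The windows of ITGA8, ITGB8, ITGA5, LAMA4, ITGA4 and NID2 also lie mostly within annotated exons, at 203, 198, 194, 187, 184 and 169 bases. The ITGB1 window lies before a listed start 47562 bases inside the gene. The counts over 25 windows take in all of these, so not every window in them is sequence before the gene. How far this alters the counts was not tested.

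Among the laminin-binding alpha chains, ITGA6, the alpha 6 chain (ENSG00000091409, GRCh38 chromosome 2, 172427354 to 172506282), had 4221 reads and 37.6 FPKM in the shSIK2 library and 1312 reads and 11.7 FPKM in the scrambled library. It was 3.22-fold higher (3.02 to 3.43), a log2 ratio of 1.68, or 1.82 at equal totals. It had the highest ratio of the 20 measured genes, and 4.87% of all measured genes had a ratio at least as high. ITGA3, the alpha 3 chain, which pairs with ITGB1 alone, had 41.5 FPKM in the shSIK2 library and 28.3 FPKM in the scrambled library, a log2 ratio of 0.55. Its transcript is 61.3% GC, and with the GC and length trend of all genes removed its log2 ratio was 0.29. ITGA7, the muscle laminin receptor chain, was below the minimum with 34 and 17 reads (shSIK2 then scrambled). Set against ITGA3 in the same library, which no scaling of the library alters, ITGA6 stood at 0.907 in shSIK2 and 0.414 in scrambled. The change was 2.19-fold (2.04 to 2.35, Woolf interval on reads), or 3.08-fold with that trend removed.

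The measured collagen-binding alpha chains differed in opposite directions, ITGA10 short of 2-fold at equal totals. ITGA2, a collagen receptor chain that can also bind laminins (chromosome 5, 52989326 to 53094779), had 1064 reads and 7.84 FPKM in the shSIK2 library and 495 reads and 3.65 FPKM in the scrambled library, 2.15-fold higher (1.93 to 2.40). ITGA10 (chromosome 1, 145891208 to 145910189), known as a collagen II receptor of cartilage cells, had 391 reads and 3.60 FPKM in the shSIK2 library and 800 reads and 7.38 FPKM in the scrambled library, 2.05-fold lower (1.81 to 2.32). The level of ITGA2 per length was 2.17 times that of ITGA10 in the shSIK2 library and 0.494 times in the scrambled library, so the order of these collagen-binding chains was reversed between the libraries (change of 4.40-fold, 3.74 to 5.17). ITGA1, the neighbour of ITGA2 on chromosome 5, was listed at 0 in both tables, and ITGA11, a collagen receptor of fibroblasts, had 20 and 26 reads. Some exon bases of ITGA1 (475, or 2.56% of them) are shared with PELO, a gene on the same strand with 558 and 740 reads.

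Among the alpha chains that bind the RGD motif, ITGA5, the fibronectin receptor chain, had 17.2 FPKM in the shSIK2 library and 11.6 FPKM in the scrambled library, a log2 ratio of 0.57. ITGAV, the alpha chain of the vitronectin and latent TGF-beta receptors, had 25.9 and 30.9 FPKM, a log2 ratio of -0.25. ITGA8 was listed at 0 in both. ITGA4 and its relative ITGA9 were classed apart from the RGD-binding chains. ITGA4, a fibronectin and VCAM1 receptor chain, had 5.05 FPKM in the shSIK2 library and 3.28 FPKM in the scrambled library, a log2 ratio of 0.61. ITGA9 had 9 and 3 reads. None of the measured ones, ITGA5, ITGAV and ITGA4, reached 2-fold. Their log2 ratios can be set beside the quartiles of all measured genes, -0.51 and 0.42: ITGA4 and ITGA5 lay above the upper one and ITGAV between them.

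Of the beta chains, ITGB1, the common partner of most alpha chains, was by far the most abundant of these transcripts, at 404 FPKM in the shSIK2 library and 613 FPKM in the scrambled library, the gene ranking 55 and 35 among all genes by FPKM. Its log2 ratio was -0.60 as deposited and -0.46 at equal totals, short of 2-fold. ITGB4, whose long cytoplasmic tail anchors hemidesmosomes, had 29.5 and 28.8 FPKM, a fold of 1.03 with a counting interval from 0.977 to 1.08. ITGB5, a vitronectin receptor chain, had 16.1 FPKM in the shSIK2 library and 10.6 FPKM in the scrambled library, a log2 ratio of 0.60. The other 5 beta chains were below 1 FPKM. ITGB8, which with ITGAV activates latent TGF-beta, had 15 reads in the shSIK2 library and 151 in the scrambled library (0.0577 and 0.580 FPKM), 10.1-fold lower by reads (5.91 to 18.4). ITGB3 had 20 and 6 reads, 3.33-fold higher by reads (1.29 to 10.1), with 51.6% of its exon bases shared with another annotated gene that was listed at 0. The leukocyte chains ITGB2 (4 and 0 reads) and ITGB7 (0 and 2 reads) and the epithelial chain ITGB6 (0 in both) were close to absent from the tables. Exons of ZNF740 on the opposite strand, with 875 and 1416 reads, cover 42.1% of the ITGB7 exon bases.

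**Figure D2:**
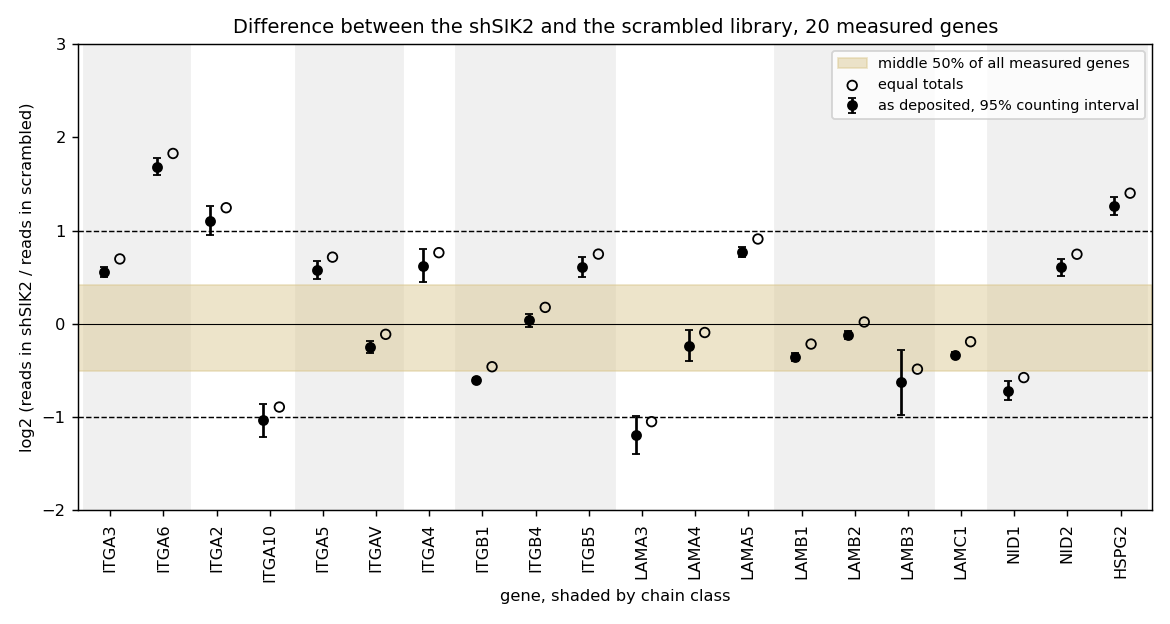
Log2 ratio of reads, shSIK2 over scrambled, for the 20 measured genes: filled circles as deposited with 95% counting intervals, open circles at equal totals, dashed lines at 2-fold, and a band for the middle 50% of all 12866 measured genes. ITGA6, ITGA2 and HSPG2 lie above the upper line with either scaling, while ITGA10 and LAMA3 lie near the lower line; LAMA3 is past it at equal totals here, where no pseudocount is added.

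The balance of alpha and beta chains differed between the libraries. The alpha chains that can pair with ITGB1 summed to 139 FPKM in the shSIK2 library and 97.0 FPKM in the scrambled library, which is 34.4% and 15.8% of the ITGB1 level. ITGB1 thus exceeded the sum of its partners 2.90-fold in shSIK2 and 6.32-fold in scrambled. ITGA6 made up 27.0% of the summed alpha chain FPKM in shSIK2 and 12.1% in scrambled, and ITGAV 18.6% and 31.8%, while the share of ITGA3 was 29.8% and 29.1%. In order of level the leading alpha chains were ITGA3, ITGA6, ITGAV and ITGA5 in the shSIK2 library, and ITGAV, ITGA3, ITGA6 and ITGA5 in the scrambled library, where ITGA6 (1312 reads) and ITGA5 (1505 reads on a longer exon model) were alike at 11.7 and 11.6 FPKM. ITGB1 gave 89.8% of the beta chain FPKM in shSIK2 and 93.9% in scrambled.

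For each known pair, the level of its less abundant chain is a plain description of the transcripts and not a measure of dimers at the surface. For pairs with ITGB1 this was the alpha chain in every case measured, in both libraries. ITGA6 with ITGB4 was the exception in kind: the less abundant chain was ITGB4 in the shSIK2 library, at 29.5 FPKM, and ITGA6 in the scrambled library, at 11.7 FPKM, a ratio of 2.52. ITGA6 stood at 1.27 times the level of ITGB4 in shSIK2 and at 0.406 times in scrambled (change of 3.14-fold, 2.90 to 3.39). Both chains of ITGAV with ITGB5 were measured, with ITGB5 less abundant in both, at 16.1 and 10.6 FPKM. Of 18 pairs considered, 9 had both chains measured; the 9 others lacked a measured alpha chain or ITGB3, ITGB6, ITGB7 or ITGB8.

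**Figure D3:**
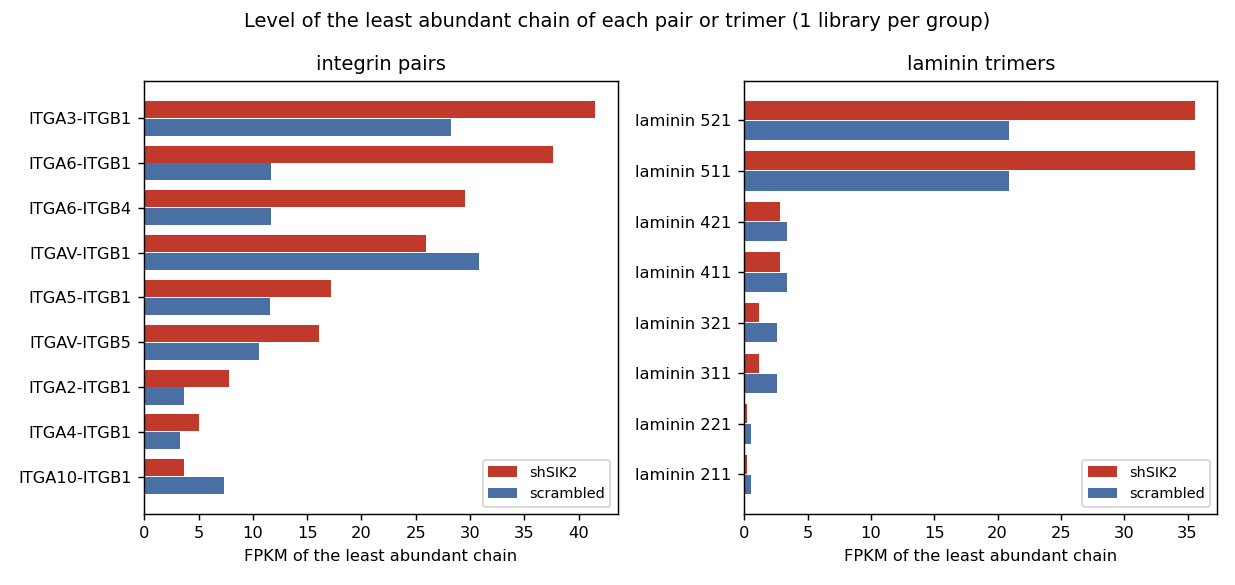
FPKM of the least abundant chain of each integrin pair with both chains measured (left) and of laminin trimers (right), shSIK2 in red above scrambled in blue, 1 library per group. The bars of ITGA6 with ITGB1 reach 37.6 and 11.7 FPKM, and those of the trimers of LAMA5 (laminins alpha 5, beta 1 or 2, gamma 1) reach 35.6 and 20.9 FPKM, set by LAMA5 in both libraries.

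LAMA5, the alpha 5 chain, was the main laminin alpha chain, with 35.6 FPKM in the shSIK2 library and 20.9 FPKM in the scrambled library, a log2 ratio of 0.77 (0.91 at equal totals), short of 2-fold. Its transcript is 66.4% GC, and with the GC and length trend of all genes removed its log2 ratio was 0.34. LAMA3, the alpha 3 chain of epithelial laminins (chromosome 18, 23689443 to 23956222), had 285 reads and 1.13 FPKM in the shSIK2 library and 650 reads and 2.58 FPKM in the scrambled library, 2.28-fold lower (1.98 to 2.63). LAMA4, found in vessel and fat basement membranes, had 2.86 and 3.37 FPKM, a log2 ratio of -0.23. LAMA2, the muscle and nerve chain, was below the minimum with 46 and 97 reads, 2.11-fold lower by reads (1.47 to 3.06), and LAMA1, the chain of the early embryo, had 0 and 1 read. LAMA5 made up 89.3% of the laminin alpha FPKM in shSIK2 and 76.3% in scrambled, and LAMA3 2.84% and 9.43%. LAMA3 stood at 0.0318 times the level of LAMA5 in shSIK2 and 0.124 times in scrambled, 3.89-fold lower (3.37 to 4.49), or 2.43-fold lower with that trend removed.

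The laminin chains LAMC1, LAMB1 and LAMB2 were more abundant than any laminin alpha chain in both libraries. LAMC1, the gamma 1 chain that most laminins share, had 152 FPKM in the shSIK2 library and 191 FPKM in the scrambled library, and a log2 ratio of -0.33. LAMB1 had 60.9 and 78.1 FPKM, a log2 ratio of -0.36, and LAMB2 had 58.9 and 64.1 FPKM, a log2 ratio of -0.12 (0.02 at equal totals). LAMB3, which assembles with LAMA3, had 114 and 176 reads and 1.42 and 2.19 FPKM, a log2 ratio of -0.59. LAMC3 had 3 reads in the shSIK2 library and 0 in the scrambled library. The laminin alpha chains summed to 26.3% of the LAMC1 level in shSIK2 and 14.3% in scrambled, and the beta chains to 79.9% and 75.5%. The ratio of LAMA5 to LAMC1 was 0.235 in shSIK2 and 0.109 in scrambled, a change of 2.15-fold (2.06 to 2.23), or 1.36-fold with the trend removed. In each trimer of LAMA1 to LAMA5 with LAMC1, the alpha chain was the least abundant of its chains in both libraries.

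**Figure D4:**
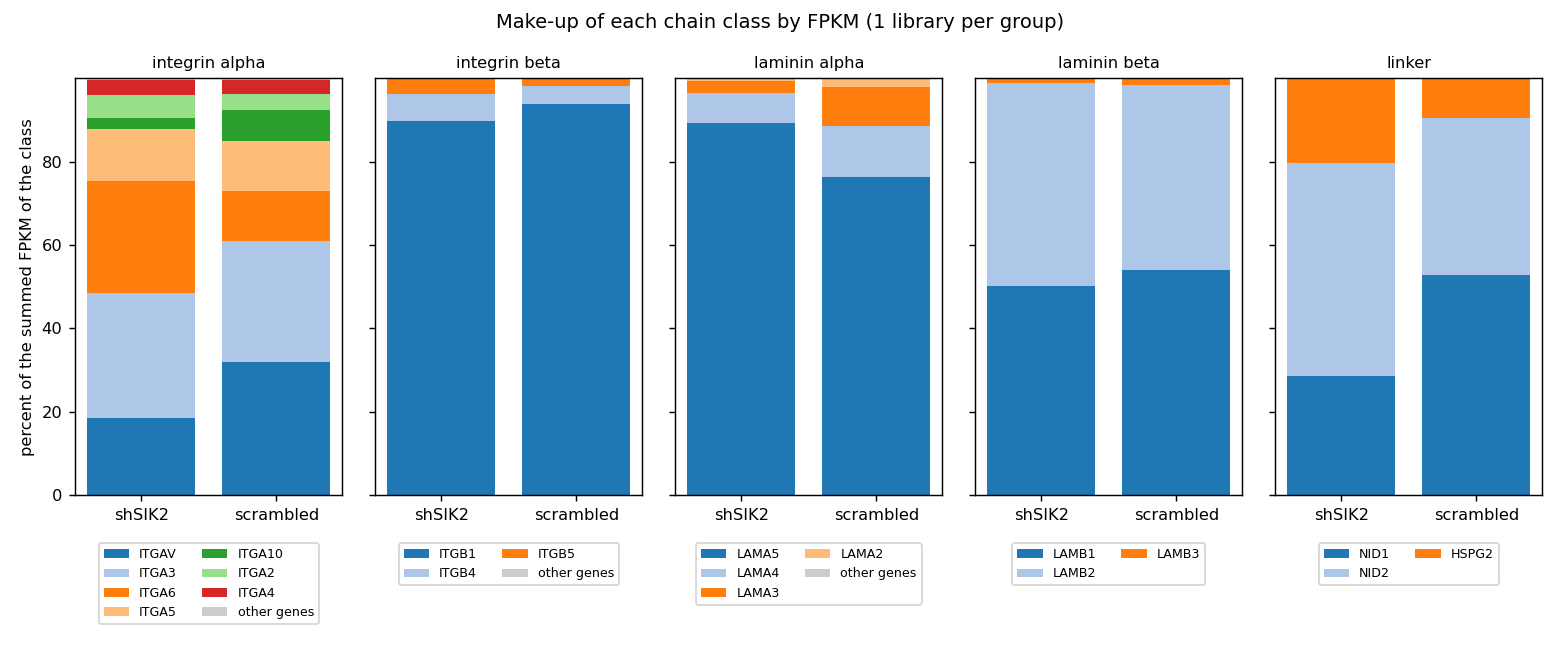
Percent of the summed FPKM of each chain class given by each gene, shSIK2 left and scrambled right, 1 library per group; genes under 1% in both libraries are pooled. ITGA6 takes 27.0% of integrin alpha FPKM in shSIK2 and 12.1% in scrambled, and NID1 takes 28.6% and 52.8% of the linkers.

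Receptors and their laminin ligands can be set side by side. For the trimers of LAMA5 with LAMC1, bound by ITGA3 or ITGA6 with ITGB1, the receptor alpha chains (ITGA3 41.5 and 28.3 FPKM, ITGA6 37.6 and 11.7 FPKM, shSIK2 then scrambled) and the ligand chain LAMA5 (35.6 and 20.9 FPKM) each had the higher value in the shSIK2 library. With the GC and length trend removed, the log2 ratios were 0.29 for ITGA3, 1.92 for ITGA6 and 0.34 for LAMA5. ITGA6 stood at 1.06 times the level of LAMA5 in shSIK2 and 0.560 times in scrambled (change of 1.89-fold, 1.76 to 2.03, or 2.99-fold with the trend removed). For the trimers of LAMA3 with LAMC1 the least abundant chain, LAMA3, was instead higher in the scrambled library. ITGA7 with ITGB1 had both its receptor chain and its ligand chains LAMA1 and LAMA2 below the minimum in both libraries. Among these receptor and ligand genes ITGA6 and LAMA3 passed 2-fold as deposited, in opposite directions. At equal totals LAMA3 fell just short of 2-fold with the pseudocount added and was just past it by reads alone.

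Of the linkers, HSPG2, the perlecan core protein (chromosome 1, 21822245 to 21937297), had 2872 reads and 9.24 FPKM in the shSIK2 library and 1199 reads and 3.86 FPKM in the scrambled library, 2.40-fold higher (2.24 to 2.56). The nidogens, which join laminin gamma chains to collagen IV, differed from each other: NID2 had 23.1 FPKM in the shSIK2 library and 15.2 FPKM in the scrambled library, a log2 ratio of 0.60, and NID1 had 13.0 and 21.3 FPKM, a log2 ratio of -0.71. NID2 stood at 1.78 times the level of NID1 in shSIK2 and 0.712 times in scrambled, so their order was reversed (change of 2.50-fold, 2.28 to 2.74). Their sum was nearly level, at 36.1 FPKM in shSIK2 and 36.5 FPKM in scrambled. Exons of RTRAF on the opposite strand cover 29.96% of the NID2 exon bases, and those of LDLRAD2 11.7% of the HSPG2 bases. RTRAF had 1941 and 2375 reads and LDLRAD2 3 and 0, and the sources used here do not say whether reads were counted by strand.

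Across all measured protein-coding genes the log2 ratio followed GC content (Spearman rho 0.33, across genes), so the 5 called changes are given with it. The transcripts of ITGA6 (42.9% GC) and ITGA2 (40.2%) lie below the median of 47.8% of all measured genes, and those of HSPG2 (64.5%), ITGA10 (53.2%) and LAMA3 (50.7%) above it. With medians by GC content and exon length removed, the log2 ratios were 1.92 for ITGA6 and 1.38 for ITGA2, and 0.81 for HSPG2, which is then short of 2-fold. They were -0.94 for LAMA3 and -0.91 for ITGA10. Of 11 measured protein-coding genes within 1 Mb of ITGA6, 0 were 2-fold higher or lower, with log2 ratios from -0.60 to 0.53. Within 1 Mb, 0 of 5 neighbours of ITGA2 were 2-fold higher and 1 lower, and 2 of 7 neighbours of HSPG2 were higher and 1 lower. For LAMA3 2 of 11 neighbours were lower and for ITGA10 3 of 12, with 0 higher at either gene. Over all measured genes, not only protein-coding ones, 11.0% were higher and 8.28% lower. The neighbours are too few to set their counts against these shares.

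Proteins that work with integrins and laminins were described from lists of names. Of 22 integrin adaptors and activators, 18 were measured, 2 of them 2-fold higher (11.1%, background 11.0%) and 2 lower (11.1%, background 8.28%), with a median log2 ratio of 0.22 against -0.11 for all measured genes. BCAR1, the scaffold p130Cas, had 48.2 FPKM in the shSIK2 library and 21.9 FPKM in the scrambled library, a log2 ratio of 1.13 that was 0.82, short of 2-fold, with the GC and length trend removed. FERMT1 (kindlin-1) had 162 and 41 reads, 3.95-fold higher (2.79 to 5.71). TNS3, a tensin, had 5.47 and 12.4 FPKM, 2.27-fold lower (2.12 to 2.44), and TLN2, the second talin, had 1.98 and 4.38 FPKM, 2.21-fold lower (2.00 to 2.45), a log2 ratio of -0.97 at equal totals and -0.99 with the trend removed. The main talin, TLN1, had 43.6 and 56.3 FPKM.

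Of 13 other laminin and collagen receptors and integrin partners, 12 were measured. Of these, 4 were at least 2-fold higher (33.3%, background 11.0%) and 0 lower (background 8.28%), with a median log2 ratio of 0.62. Like the other lists, this one was chosen with earlier results of these data known, so its share describes these 12 genes only. DDR1, a collagen receptor kinase, had 722 reads in the shSIK2 library and 113 in the scrambled library, 6.39-fold higher (5.23 to 7.86), while its relative DDR2 had 1729 and 2517 reads, a log2 ratio of -0.54. MCAM, a receptor for LAMA4 laminins, was 3.02-fold higher (2.55 to 3.59), the heparan sulfate proteoglycan SDC1 2.77-fold (2.49 to 3.08) and the tetraspanin CD9 2.48-fold (2.30 to 2.69). CD151, the tetraspanin that binds laminin-binding integrins, had 36.0 and 34.7 FPKM. At equal totals SDC4 was the fifth member past 2-fold (background 13.4%). With the GC and length trend removed, the median of this list was 0.31, and the log2 ratios were 2.21 for DDR1, 1.54 for MCAM, 1.19 for SDC1 and 1.39 for CD9.

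Of 19 other basement membrane proteins 11 were measured, 1 higher (9.09%, background 11.0%) and 2 lower (18.2%, background 8.28%), with a median log2 ratio of -0.01. FBLN1 (fibulin-1) had 592 reads in the shSIK2 library and 148 in the scrambled library, a log2 ratio of 1.91 (interval of the fold 3.34 to 4.82). COL15A1 had 3.07 and 23.7 FPKM, 7.71-fold lower (6.89 to 8.64), and the netrin NTN4, a laminin-related protein, had 4.87 and 10.4 FPKM, 2.14-fold lower (1.88 to 2.44), or a log2 ratio of -0.94 at equal totals and -0.91 with the trend removed. HMCN1, with 1.25 and 2.20 FPKM, was the fourth by size of ratio, and AGRN had 10.6 and 10.7 FPKM. Of 5 hemidesmosome proteins, PLEC (23.8 and 12.6 FPKM, a log2 ratio of 0.91 and 1.05 at equal totals), DST (14.7 and 10.04 FPKM) and KRT14 were measured. KRT14 had 7 reads in the shSIK2 library and 46 in the scrambled library, 6.57-fold lower (2.95 to 17.3). COL17A1 and KRT5 had at most 10 reads in either library.

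**Figure D5:**
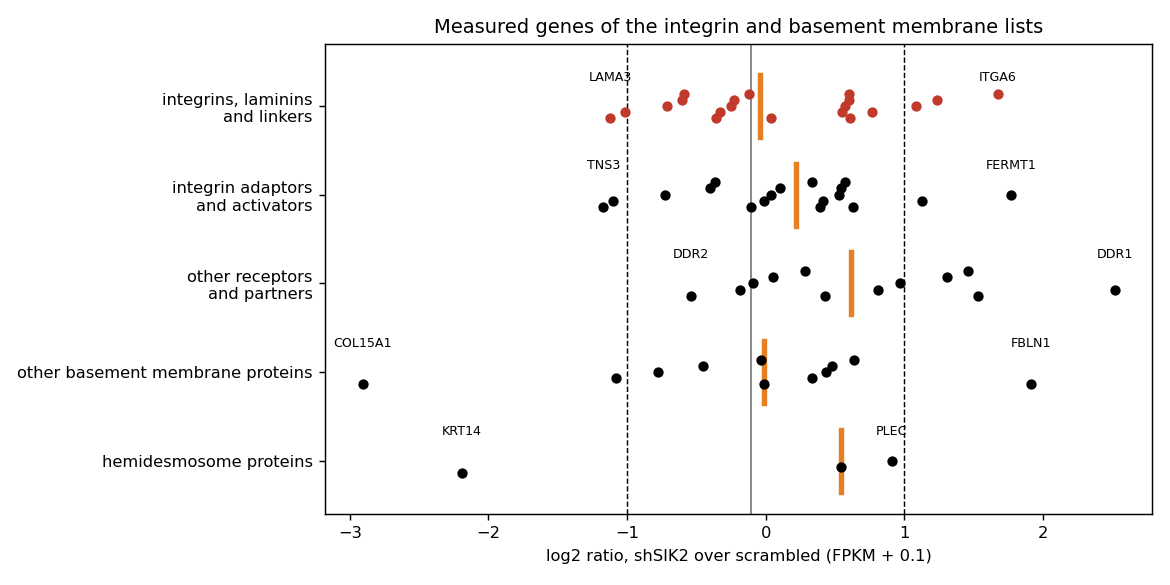
Log2 ratio (FPKM plus 0.1, shSIK2 over scrambled) of each measured gene in 5 lists; orange bars are list medians, the grey line is the median of all measured genes (-0.11) and dashed lines mark 2-fold. The highest and lowest gene of each list is named, from ITGA6 and LAMA3 in the top row to PLEC and KRT14 in the bottom row.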

How the data were processed

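Total RNA was extracted with Trizol, and a commercial provider sequenced standard Illumina libraries, per the labels' protocols. The submitters' processing notes list HISAT2 2.0.5 and hg18. No source used here gives the read counter, strand setting or annotation. The authors deposited FPKM values for 58735 genes per library, per the file headers. All identifiers matched GENCODE release 29 (GRCh38), the source of symbols, coordinates and exon lengths, although the notes name another build.

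FPKM times exon length gave whole multiples of a step of 58.3 for 100% of values above 0 (tolerance 0.001) in both tables, and the multiples were taken as reads. The step is shared, so the deposited FPKM are scaled for length and not to each library total. Equal totals add 0.14 to each log2 ratio, and the median of all measured genes is then 0.03. Folds are ratios of reads with exact (Clopper-Pearson) 95% intervals; reads are not independent molecules. Ratios between genes of 1 library have Woolf intervals. The GC and length trend was removed by medians in 20 bins of each. With 1 library per group nothing was tested. Calculations used Python 3.11.15, matplotlib 3.10.9, scipy 1.17.1, pandas 2.3.3 and numpy 2.4.6, and were tested on simulated data.

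The members and lists were chosen with earlier results of these data known. All 33 members are named; from each other list the up to 4 measured genes with the largest absolute log2 ratio are named, and further genes were chosen after their values were seen. Alternatives were another scaling, pseudocount, minimum level and fold.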

Additional observations from a re-analysis of the deposited data

How the results depend on the processing

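ITGA6 was at least 2-fold higher under every scaling, pseudocount, minimum level and trend correction tried, HSPG2 under all but the trend correction, and ITGA2 under all but a pseudocount of 1 FPKM. The count of higher genes was 2 to 4 under these alternatives and 7 at 1.5-fold, where 19.7% of all genes pass. Over all genes the share higher was 5.61% with at least 5 FPKM, 5.91% with a pseudocount of 1 FPKM, 10.7% with the trend removed, 11.9% with upper quartile scaling and 16.0% with any read. The count of lower genes, 2 as deposited, was 0 at equal totals, 0 with a pseudocount of 1 FPKM and 0 with the GC and length trend removed; it was 1 with upper quartile scaling (LAMA3), 1 with at least 5 FPKM (ITGA10), 3 with any read (ITGB8 joins) and 5 at 1.5-fold. The share of all genes lower was 6.04%, 4.83%, 6.79%, 7.05%, 7.19%, 10.5% and 21.3% under these settings, in the order given. The lower calls therefore rest on values close to 2-fold. The median of the genes relative to all genes, 0.07 as deposited, was 0.76 with at least 5 FPKM, which leaves 17 genes. The genes that drop out there are LAMA3, LAMA4 and LAMB3, each with a negative log2 ratio, and the median of all genes was -0.20. With any read, which takes in 30 genes, the relative median turned to -0.0082. Other causes of these shifts were not tested. Of the 20 measured genes, 1 changed sign at equal totals (LAMB2) and 3 with the trend removed (ITGAV, ITGB4 and LAMA4). No paired analysis was possible because each group is 1 library, and no replicate could be left out. Depth limits the 13 genes below 1 FPKM, with at most 151 reads in a library behind any of them. The minimum is a level per length, so exon length also decides which genes fall below it. ITGB8, with 151 reads in the scrambled library, has 15156 exon bases and was below it. LAMB3, with 114 and 176 reads on 4688 exon bases, was measured.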

Other observations

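ILK, the integrin-linked kinase that cells use widely, had 12 reads in the shSIK2 library and 8 in the scrambled library. Exons of TAF10 on the opposite strand cover 68.1% of its exon bases, and TAF10, which is also in wide use, had 38 and 40 reads. Among the integrin, laminin and linker genes, 21 share at least 1 exon base with another annotated gene, 11 of them measured. The sources used here do not say how reads on shared bases were counted, and the part of this in the levels was not tested.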
